A study of Mus musculus with 12 samples.

Results

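Hypothalami of mice with obesity given aged garlic extract (Ob + EAE) were compared with hypothalami of untreated mice with obesity (Ob), by RNA-seq, across all genes. The libraries were taken by their sample titles, 2 of Ob + EAE and 3 of Ob, together 5 of the 12 libraries in the series. All mice were male C57BL/6. Both groups received a high-fat diet (HFD, 60% of energy from fat) from 8 weeks of age, and gavage ran daily for 28 days from 16 weeks of age, with extract at 200 mg/kg in Ob + EAE and vehicle in Ob. The other 7 libraries, 3 of control mice on standard chow with vehicle (C), 3 of mice with obesity given resveratrol at 2.25 mg/kg (Ob + RSV) and 1 given curcumin at 50 mg/kg (Ob + CUR), entered the fit to estimate the spread. The labels give an HFD of 8 weeks in total but start the gavage after those 8 weeks, so the diet during treatment is not clear from them. With 2 libraries in Ob + EAE, p-values measure the spread between few samples, and the sources used here do not say that these came from separate animals.

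The hypothalamus sets feeding, energy use, water balance, stress responses and reproduction through neurons that release small peptides, and its vessels exchange signals with the blood. A diet rich in fat is known to disturb it in rodents, with reactive glia and blunted responses to leptin and insulin. Aged garlic extract is rich in water-soluble sulfur compounds and is known mainly as an antioxidant preparation. In whole tissue, fewer cells of a type and less RNA per cell cannot be told apart.

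The Ob libraries held 19407694, 18181681 and 15655156, and the Ob + EAE libraries 21120304 and 21536990 counted reads. Reads were found for 26123, 32664 and 32511 genes in Ob and for 37165 and 38081 in Ob + EAE. At an equal depth of 15655156 reads these numbers were 25987 to 32511 and 35462 to 36319. The Ob + EAE libraries differed far less from each other (chi-square of 6.51 per gene) than the Ob libraries did (57.6 to 70.2), though by more than sampling noise. Over the 1000 most variable genes, the component with the largest share of variance (33.7%) placed Ob replicate 1 at −53.7, the other Ob libraries at −9.00 and −3.93, and the Ob + EAE libraries at 28.7 and 38.5. Transcription factor genes of the hypothalamus (Nkx2-1, Sim1, Otp) and its peptide genes were expressed in the 5 libraries, while Kiss1, a peptide of the arcuate nucleus, had no read and Agrp had 6, 0 and 3 reads in Ob and 3 and 9 in Ob + EAE. Ob + RSV replicate 2 stood apart from the other 11 libraries on the second component. It enters the comparison through the estimate of spread and the scaling, and a fit on the 5 libraries alone leaves it out (652 DEGs by edgeR, against 129 below). It is also part of the mean behind the length step and of the 9 libraries of C, Ob and Ob + RSV used below.

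Of 29782 genes with at least 10 reads over the 5 libraries, 129 (0.433%) were differentially expressed genes (DEGs), defined by a log2 fold change (log2FC) of 1 or more in either direction at an adjusted p under 0.05, by edgeR's quasi-likelihood test. They comprised 90 genes that were higher in Ob + EAE (0.302% of those tested) and 39 that were lower (0.131%). At an unadjusted p under 0.05, without a minimum on the log2FC, 2457 genes (8.25%) were higher and 2223 (7.46%) lower. The libraries of both groups did not overlap for 7380 genes (24.8%) that were higher and 5411 (18.2%) that were lower, and this held for each of the 129 DEGs. These shares over all genes are the background to the counts in the lists below. Of the 90 higher DEGs, 88 also lay above all 9 libraries of C, Ob and Ob + RSV, and all 39 lower DEGs lay below them, against 7.88% and 4.84% of all genes tested. The Ob libraries among the 9 are those of the call itself, and of the 7380 and 5411 genes without overlap 2347 and 1441 lay beyond all 9. The smallest adjusted p was 0.0368, so the DEGs lay close to the threshold, and their number rested on single libraries. Without Ob replicate 1, Ob replicate 2, Ob + EAE replicate 1 or Ob + EAE replicate 2 there were 0 DEGs by edgeR, with 852, 1822, 1539 and 752 genes at an unadjusted p under 0.05 and a log2FC of 1 or more. Without Ob replicate 3 there were 680 DEGs. edgeR's own filter on low counts left 0 DEGs, with 1526 genes at an unadjusted p under 0.05 and a log2FC of 1 or more. DESeq2 on the 12 libraries called more genes, 368 higher (1.24%) and 555 lower (1.86%). These shares are the background to the counts by DESeq2 in each list below.

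In many DEGs the chow-fed controls (C) were intermediate. For the 90 higher DEGs, C replicates 1 and 2 lay above all Ob libraries in 84 and 79 genes, and C replicate 3 lay within the range of Ob in 58. For the 39 lower DEGs, C replicates 1 and 2 lay below all Ob libraries in 31 genes each and C replicate 3 within their range in 31. The lower of the Ob + EAE libraries was reached by C replicates 1 and 2 in 1 higher DEG each and by C replicate 3 in 0. The single Ob + CUR library lay above all Ob libraries for 89 of the 90 higher DEGs and below them for 36 of the 39 lower ones.

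The direction of change followed the length of the gene. Among protein-coding genes with a mean of at least 50 reads, the median log2FC was −1.01 for 212 genes with up to 1000 exon bases, −0.63 for 1205 genes with up to 2000, −0.23 for 3804 genes with up to 4000, 0.12 for 5163 genes with up to 8000 and 0.45 for 2568 longer genes. The median DEG that was higher had 8457 exon bases and the median DEG that was lower 490. Within each library, the log2 difference between genes over 8000 and genes of up to 1000 exon bases, relative to the mean of the libraries, was −1.20, −0.44 and −0.13 in Ob and 0.58 and 0.98 in Ob + EAE, so the groups did not overlap in it. It was 0.80 in Ob + CUR and ran from −0.68 to 0.42 in C and Ob + RSV. When the trend of each library on exon length was removed, a step added after the data were seen, 0 of 24344 genes with a known length were DEGs by edgeR, the smallest adjusted p was 0.0688, and 1044 genes had an unadjusted p under 0.05 with a log2FC of at least 1. At that p without a minimum on the log2FC, 6.01% of genes were then higher and 7.51% lower. Of the 128 DEGs with a known length, 128 kept their direction and 74 a log2FC of at least 1 in size after that step. The medians of the length classes then ran from −0.55 to −0.01, so the trend of the shortest protein-coding genes was not fully removed. The extract and this property of the libraries cannot be told apart with the libraries at hand, and the main gene groups are therefore given with their medians before and after the step.

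**Figure D1:**
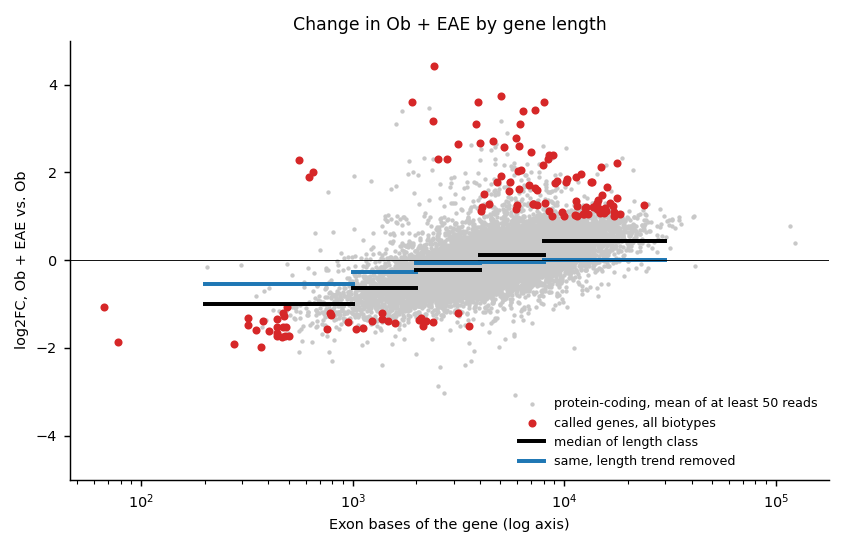
Log2FC of Ob + EAE vs. Ob (y axis) against the exon bases of each gene (log x axis). Grey points are protein-coding genes with a mean of at least 50 reads, red points the DEGs with a known length, black bars the medians of 5 length classes (from −1.01 in the shortest to 0.45 in the longest) and blue bars the same medians after the length trend was removed.

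Classes of RNA outside protein-coding genes differed in their medians as well. The 1365 genes that await experimental evidence (TEC) had a median log2FC of 0.45, the 140 transcripts within introns 0.49 and the 1606 antisense transcripts 0.25, against −0.01 for 16385 protein-coding genes and −0.13 for 2304 processed pseudogenes. Of these classes, processed pseudogenes held 21 of the 39 lower DEGs. Genes of few reads can pass the filter of 10 reads through the Ob + EAE libraries alone, where more genes were found at equal depth. The median of all genes was 0.02 here and −0.03 with edgeR's own filter on low counts. The part of this filter in the medians of the classes was not tested. The sources used here do not say whether reads were counted by strand, so an antisense or intronic transcript and its host gene cannot be told apart.

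A set of blood vessel genes stood among the DEGs that were higher in Ob + EAE. Flt1, a receptor of vascular endothelial growth factor (VEGF), was measured at 13.8, 25.2 and 38.6 CPM (counts scaled to library size and composition) in Ob and at 84.9 and 93.3 in Ob + EAE (log2FC of 1.79, SE 0.32, adjusted p = 0.0397). Kdr, the main signaling receptor of VEGF, stood at 4.26, 6.30 and 8.44 CPM in Ob and 21.9 and 20.8 in Ob + EAE (log2FC of 1.75, SE 0.35, adjusted p = 0.0417). In both genes every Ob + EAE library lay above every Ob library, and Ob replicate 1 was the lowest. Ptprb, the phosphatase of endothelial cells that opposes the receptor Tek, gave 14.7, 11.1 and 20.9 CPM against 47.4 and 58.9 CPM (log2FC of 1.77, SE 0.26, adjusted p = 0.0368). Abcb1a, the drug efflux pump of the blood–brain barrier, gave 10.7, 11.2 and 13.2 CPM against 32.6 and 36.6 CPM (log2FC of 1.57, SE 0.28, adjusted p = 0.0368). Eng, a coreceptor for ligands of the TGF-β family on endothelium, gave 12.3, 15.3 and 16.8 CPM against 32.2 and 32.3 CPM (log2FC of 1.12, SE 0.23, adjusted p = 0.045). All of these rose, and so did Hspg2, which encodes perlecan of the basement membrane (7.69, 8.79 and 11.7 CPM against 22.2 and 23.8 CPM, log2FC of 1.29), and Jcad, a protein of endothelial junctions (9.62, 14.6 and 22.3 CPM against 44.6 and 52.8 CPM, log2FC of 1.65). After the length step the log2FC of Hspg2, a long gene, was 0.76. Those of Flt1, Kdr, Ptprb, Abcb1a, Eng and Jcad were 1.31, 1.40, 1.25, 1.41, 1.12 and 1.38. Kdr, Ptprb, Eng, Hspg2 and Jcad were picked from the DEGs after their values had been seen.

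A list of 16 endothelial genes held 2 DEGs by edgeR, Flt1 and Abcb1a (0.302% of all genes tested were higher DEGs). By DESeq2 on the 12 libraries 7 were higher (1.24% of all genes). At an unadjusted p under 0.05, 8 genes were higher and 0 lower (8.25% and 7.46% of all genes tested). The libraries did not overlap for 9 genes that were higher and 2 that were lower (24.8% and 18.2% of all genes). The median log2FC of the list was 0.82, against 0.02 over all genes tested, and 0.78 with the length trend removed, the highest of 51 lists before that step. Cdh5, the cadherin of endothelial junctions, stood at 2.60, 5.55 and 4.71 CPM in Ob and 15.2 and 15.5 CPM in Ob + EAE, a log2FC of 1.84 with an adjusted p of 0.0946. Tek, the receptor of angiopoietins, had 5.03, 4.45 and 9.30 CPM against 17.4 and 17.4 CPM, and Pecam1, an adhesion protein at endothelial contacts, 5.81, 8.67 and 10.6 CPM against 22.8 and 19.7 CPM. Both lay higher in Ob + EAE without overlap, with adjusted p-values of 0.069 and 0.0588. Cldn5, the claudin of tight junctions, ran to 17, 18.6 and 35.3 CPM in Ob and 51.3 and 43.1 CPM in Ob + EAE, where Ob replicate 3 came closest to the treated libraries. The list was not uniform. Ly6a and Ly6c1, surface proteins of brain endothelium encoded by short genes, had log2FC of −0.45 and −0.48, and Slc2a1, the glucose transporter of the barrier, 0.21. The summed level of the list ran from 332 to 359.8 CPM in Ob and from 526 to 541 CPM in Ob + EAE, and it was 252 to 316 CPM in C. Both Ob + EAE libraries exceeded all 9 libraries of C, Ob and Ob + RSV for 9 of the 16 genes, against 7.88% of all genes tested. The single Ob + CUR library was as high, for example 98.7 CPM for Flt1, 24.2 CPM for Kdr and 17.4 CPM for Cdh5, and has no replicate.

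The 250 bases before the RefSeq start (GRCm38.p6, not the build of the counts) of 4 vessel genes that rose are shown because these genes moved together. Capitals mark AGGAAG or its reverse complement CTTCCT, a form of the site bound by ETS factors, which include regulators of endothelial genes. Other and shorter forms of that site, which these stretches may hold, were neither marked nor counted. The Flt1 stretch, at chr5:147726012-147726261 on the minus strand, holds the motif 2 times. That of Kdr, at chr5:75978456-75978705 on the minus strand, holds none, that of Eng, at chr2:32646345-32646594 on the plus strand, 2, and that of Abcb1a, at chr5:8566841-8567090 on the plus strand, 2. Over the endothelial list with Kdr, Eng and Ptprb, 7 of the 15 starts looked up, of 13 genes, hold the motif. Not all genes of the list were covered, and starts on the chromosome of Jcad were left out. Of all 32851 starts listed in the reference, with no chromosome left out, 29.5% do so in the same window. The sets are thus not alike, and a match is a description of letters, not of a bound site.
Flt1: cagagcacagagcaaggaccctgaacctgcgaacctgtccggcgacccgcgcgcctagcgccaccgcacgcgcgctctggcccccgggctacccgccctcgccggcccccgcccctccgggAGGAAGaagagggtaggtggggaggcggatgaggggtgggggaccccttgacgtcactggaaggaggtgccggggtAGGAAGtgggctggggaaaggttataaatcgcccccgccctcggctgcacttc
Kdr: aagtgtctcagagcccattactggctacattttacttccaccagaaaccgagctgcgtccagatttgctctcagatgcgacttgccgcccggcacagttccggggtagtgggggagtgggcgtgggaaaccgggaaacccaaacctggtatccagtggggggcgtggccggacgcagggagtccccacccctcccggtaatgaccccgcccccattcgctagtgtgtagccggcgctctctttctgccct
Eng: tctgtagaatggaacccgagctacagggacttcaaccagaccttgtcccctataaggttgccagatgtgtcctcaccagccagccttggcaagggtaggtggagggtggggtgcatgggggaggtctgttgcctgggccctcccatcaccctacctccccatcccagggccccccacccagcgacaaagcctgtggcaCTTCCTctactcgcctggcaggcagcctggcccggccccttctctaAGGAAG
Abcb1a: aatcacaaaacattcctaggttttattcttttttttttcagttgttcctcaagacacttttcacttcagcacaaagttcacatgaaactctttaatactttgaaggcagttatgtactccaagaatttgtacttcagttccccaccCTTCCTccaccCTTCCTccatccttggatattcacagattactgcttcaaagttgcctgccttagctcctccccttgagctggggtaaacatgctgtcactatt

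Mural cells, the pericytes and smooth muscle cells around vessels, went the same way in part. Notch3, the Notch receptor of these cells, rose from 19.5, 20.0 and 20.9 CPM in Ob to 46.1 and 53.2 CPM in Ob + EAE (log2FC of 1.30, SE 0.21, adjusted p = 0.0368), a gap far wider than the range within either group. After the length step the log2FC of Notch3 was 0.96. Rgs5, a regulator of G protein signaling in pericytes, had 47.7, 43.5 and 45.6 CPM against 86.3 and 85.2 CPM, a log2FC of 0.91 that missed adjustment (adjusted p = 0.0595). Of 12 mural genes, 1 was a DEG, where 0.302% of all genes tested were higher DEGs. At an unadjusted p under 0.05, 6 were higher and 0 lower, and 7 were higher without overlap (8.25%, 7.46% and 24.8% of all genes). Acta2 and Myh11, the actin and myosin of smooth muscle, were among them, with log2FC of 1.07 and 1.24. The median of the list was 0.54 and 0.28 with the length trend removed. Summed levels were 170.0 to 229 CPM in Ob and 275 to 283 CPM in Ob + EAE. Fn1, a matrix protein on the list of meninges and collagens, lay at 12.1, 16.5 and 17.7 CPM against 48.4 and 57.8 CPM (adjusted p = 0.0658), while the collagens of that list had log2FC on both sides of 0 and the list a median of 0.04.

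**Figure D2:**
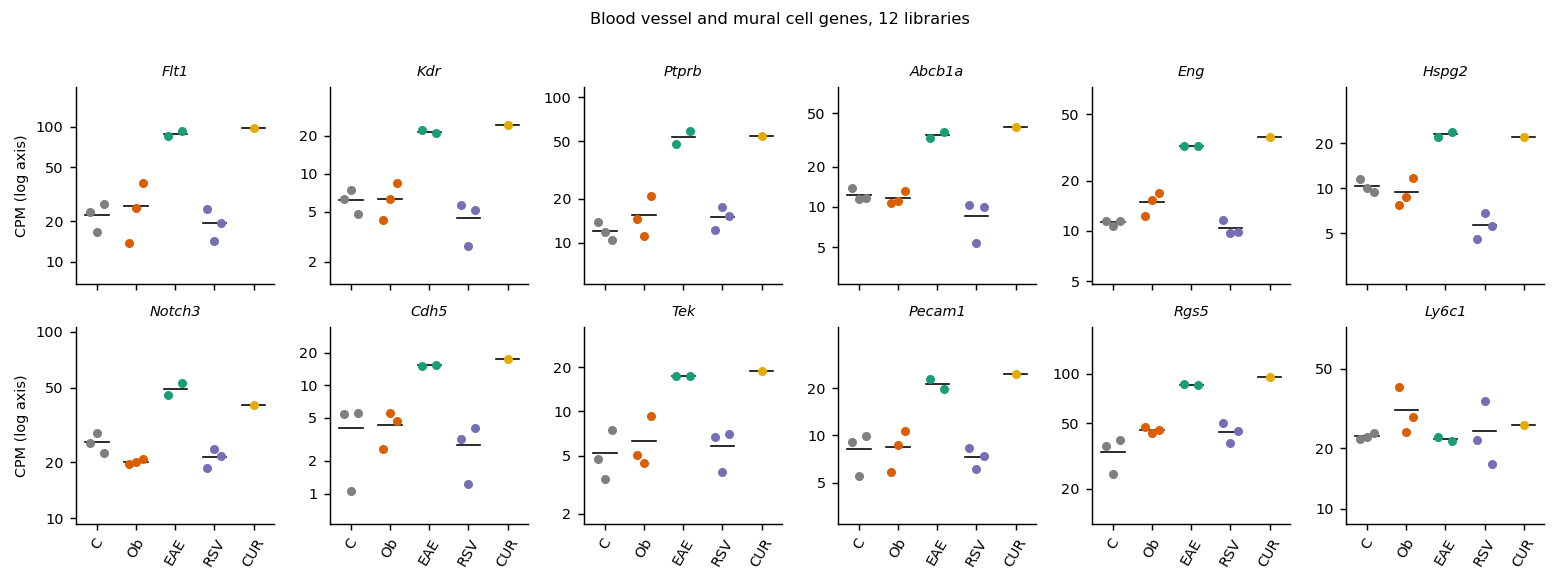
CPM (log y axis) of 12 vessel and mural genes in the 12 libraries by group, with 1 point per library and a bar at the group mean, where EAE, RSV and CUR stand for Ob + EAE, Ob + RSV and Ob + CUR. The 2 Ob + EAE points lie above all C, Ob and Ob + RSV points except in Ly6c1, for example 84.9 and 93.3 CPM of Flt1 against at most 38.6 CPM.

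Receptors and channels of neurons were among the DEGs with the largest increases, from low levels in Ob. Glra1, the α subunit of the glycine receptor, had 2, 14 and 14 reads in Ob and 181 and 375 in Ob + EAE, or 0.111, 0.810 and 0.856 CPM against 8.44 and 17.1 CPM (log2FC of 4.43, SE 0.70, adjusted p = 0.0368). Oprm1, the μ-opioid receptor, had 10, 8 and 9 reads against 95 and 185, or 0.553, 0.463 and 0.550 CPM against 4.43 and 8.43 CPM (log2FC of 3.61, SE 0.69, adjusted p = 0.0417). For both, the lower treated library was several times the highest Ob library, and Ob + EAE replicate 2 was the higher of the treated pair. Kcna3, a voltage-gated potassium channel, rose from 0.719, 1.68 and 0.978 CPM to 12.3 and 15.2 CPM (log2FC of 3.61, SE 0.78, adjusted p = 0.0477). Gabrb2, a β subunit of the GABA-A receptor, rose from 1.38, 9.71 and 9.60 CPM to 59.6 and 85.3 CPM (log2FC of 3.40, SE 0.68, adjusted p = 0.0417), with Ob replicate 1 far below the other libraries. In C, Gabrb2 stood at 47, 32.2 and 7.44 CPM, so C replicates 1 and 2 lay between the groups and C replicate 3 within the range of Ob. The sodium channel genes Scn2a (105, 121 and 126 CPM against 248 and 299 CPM) and Scn3a (log2FC of 1.04) rose from high levels, as did Itpr1, the calcium channel of the endoplasmic reticulum (64.4, 86.8 and 81.9 CPM against 144 and 179.7 CPM, log2FC of 1.06). After the length step the log2FC of Glra1 was 4.69 and that of Gabrb2 3.20, but those of Scn2a and Itpr1, both long genes, were 0.71 and 0.43.

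Some of the higher DEGs encode proteins that guide axons and join neurons. No list was fixed for them, so they are examples and not a count. The teneurins Tenm1, Tenm2 and Tenm3, which bind latrophilins across the synapse, had log2FC of 2.21, 1.01 and 1.77. Adgrl3, a latrophilin, had 1.41. Tenm1 was measured at 10.1, 20.1 and 22.6 CPM in Ob and 67.8 and 95 CPM in Ob + EAE. The guidance receptor Robo1 (19.5, 20.2 and 22.1 CPM against 45.3 and 56.3 CPM, log2FC of 1.30) rose together with its ligand genes Slit1 (1.16) and Slit3 (2.04), and with Plxna2, a semaphorin coreceptor (1.01). The adhesion genes Ncam2 (1.89), Dscam (1.01), Pcdh17 (1.06) and Pcdhac2 (2.79) were also DEGs. Bsn, a scaffold of the presynaptic active zone, rose from 42.8, 76 and 53.4 CPM to 159 and 203 CPM, a log2FC of 1.66. Map1b, a microtubule protein of growing axons, rose from 659.6, 671 and 603 CPM to 1253 and 1539.8 CPM, a log2FC of 1.11 that was 0.51 after the length step. After that step the log2FC was also under 1 for Plxna2 (0.40), Tenm2 (0.53), Pcdh17 (0.54), Dscam (0.64), Robo1 (0.70), Adgrl3 (0.76) and Slit1 (0.96). It stayed above 1 for Tenm1 (1.63), Tenm3 (1.34), Slit3 (1.84), Ncam2 (1.45), Pcdhac2 (2.63) and Bsn (1.08). Of these genes, Pcdhac2 was named by the rule for the largest changes and the others were chosen from the DEGs after their values had been seen, as were Scn2a, Scn3a and Itpr1.

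Others of the 15 largest increases came from genes of varied or little known function. Plcxd3, a phospholipase-like protein, had 13, 22 and 22 reads in Ob and 254 and 391 in Ob + EAE (log2FC of 3.73, SE 0.58, adjusted p = 0.0368), and Cntnap5c, a neuronal adhesion protein of the contactin-associated family, 0, 19 and 9 against 103 and 191. Both were several times higher in each treated library. Aff2, a nuclear protein whose loss causes a form of intellectual disability in humans, rose from 0.885, 2.54 and 2.87 CPM to 17.9 and 27.3 CPM, and Slc9a7, a sodium/proton exchanger of the Golgi, from 1.71, 5.20 and 4.04 CPM to 25.5 and 37.4 CPM. Klhl11, an adaptor of ubiquitin ligases, Ankfn1, Xkr4 and the pseudogene Gm2792 had log2FC of 3.16, 3.11, 2.61 and 2.64. Regulators of transcription and RNA were chosen from the other DEGs after their values had been seen. Among these, Ep300, a histone acetyltransferase, had 34.6, 59.6 and 57.7 CPM against 103 and 122 CPM, Rbfox1, a splicing factor of neurons, 37, 50.6 and 53.4 CPM against 109.8 and 118 CPM and Usp9x, which removes ubiquitin, 76.9, 96 and 106 CPM against 236 and 289 CPM. After the length step the log2FC of Ep300 and Usp9x were 0.63 and 0.94 and that of Rbfox1, a gene of moderate length, 1.24.

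**Figure D3:**
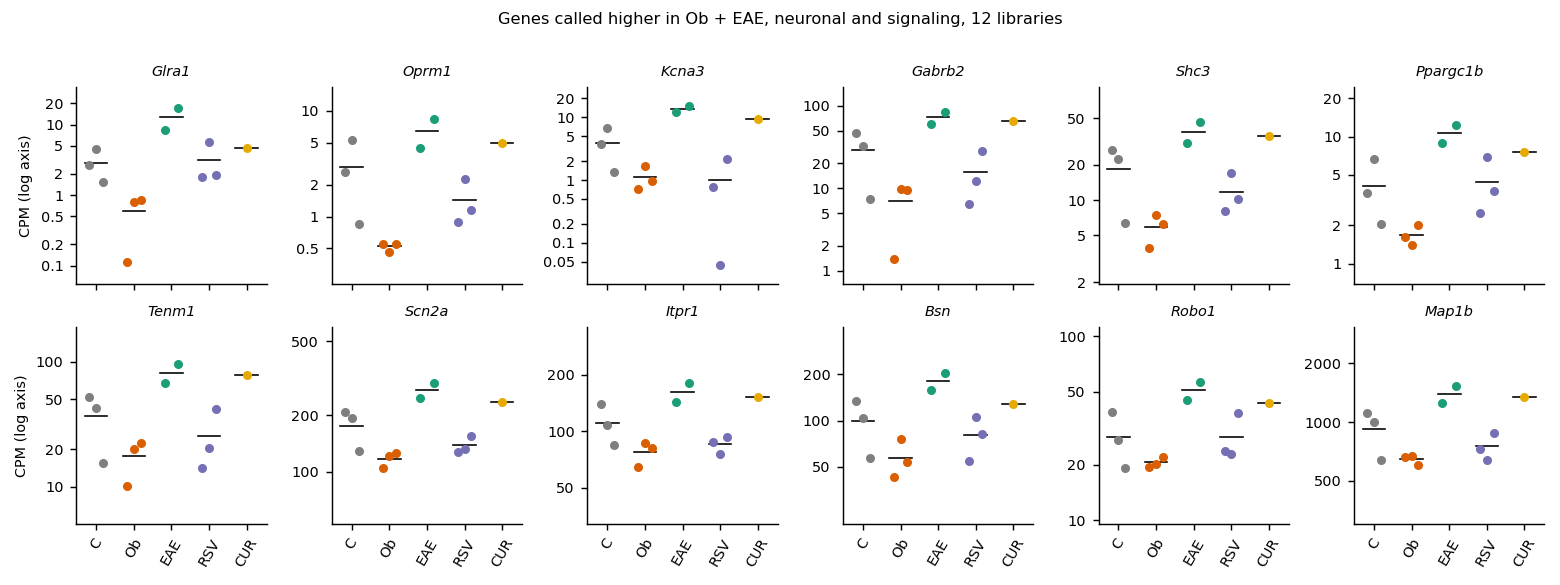
CPM (log y axis) of 12 neuronal and signaling DEGs in the 12 libraries by group, with 1 point per library and a bar at the group mean, where EAE, RSV and CUR stand for Ob + EAE, Ob + RSV and Ob + CUR. The Ob + EAE points lie above the Ob points in each panel, and C replicates 1 and 2 often fall between the groups, as in Gabrb2 with 47, 32.2 and 7.44 CPM in C.

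Over whole lists, ion channels and receptors leaned towards higher values in Ob + EAE and were rarely DEGs. Of 25 potassium channel genes, 14 were higher and 0 lower at an unadjusted p under 0.05, 20 were higher without overlap (against 8.25% and 24.8% of all genes tested), 0 were DEGs by edgeR and 2 by DESeq2 on the 12 libraries, and the median log2FC was 0.61, or 0.14 after the length step. Kcna1, a channel of axons, stood at 1.60, 6.07 and 2.57 CPM against 17.3 and 25.4 CPM and Kcnj6, which is opened by G proteins, at 1.99, 3.24 and 2.81 CPM against 10.4 and 14.2 CPM, with adjusted p-values of 0.0668 and 0.0685. Of 24 genes of glutamate neurons and receptors, 8 were higher and 0 lower, 0 were DEGs by edgeR and 1 by DESeq2, with a median of 0.48 and 0.11 after the step. Grin2b, an NMDA receptor subunit, had 66.1, 60.5 and 61.2 CPM against 131 and 171 CPM (adjusted p = 0.0551). The 18 genes of GABA neurons and receptors held 1 DEG, Gabrb2, 5 higher and 0 lower, and a median of 0.26, or 0.11 after the step. Gad2, which makes GABA, lay at 209, 217 and 273 CPM against 415 and 449.6 CPM without passing adjustment. Of 14 dopamine, serotonin and histamine genes 4 were higher and 0 lower, with a median of 0.41 (0.22 without Ob replicate 1), among them Slc6a3, the dopamine transporter, at 3.21, 6.53 and 4.53 CPM against 16 and 14.1 CPM. In 16 genes expressed by all neurons, 2 were higher and 1 lower, the median was −0.12 and the summed level 7735 to 9387 CPM in Ob against 7816 to 8067 CPM in Ob + EAE, so the groups overlapped there. Within that list Map2, a long gene for a dendritic microtubule protein, had a log2FC of 1.01 and Uchl1, a short gene for an abundant neuronal hydrolase, −0.98.

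Among regulators of energy use, Ppargc1b was the only DEG in the list of AMPK and PGC-1. It encodes PGC-1β, a coactivator that drives genes of mitochondria and fat metabolism, and rose from 1.60, 1.39 and 2.02 CPM in Ob to 8.86 and 12.3 CPM in Ob + EAE (log2FC of 2.66, SE 0.51, adjusted p = 0.0417), with 29, 24 and 33 reads against 190 and 270. In C it stood at 3.60, 6.65 and 2.06 CPM. Prkaa2, a catalytic subunit of AMPK, had 15.9, 18.3 and 16.8 CPM against 32.1 and 33 CPM (adjusted p = 0.0936), and Ppargc1a, which encodes PGC-1α, 30.8, 23 and 23.6 CPM against 39 and 45.8 CPM (adjusted p = 0.167). The 21 genes of that list had a median log2FC of −0.02, with 4 higher and 3 lower. Shc3, which links receptors to Ras signaling in neurons, rose from 3.87, 7.52 and 6.24 CPM to 30.6 and 46.3 CPM (log2FC of 2.71, SE 0.45, adjusted p = 0.0368). Adcy9, which makes cyclic AMP, and Pde4d, which degrades it, were picked from the DEGs after their values had been seen, and rose with log2FC of 2.57 and 1.95. In the list of leptin and insulin signaling, 6 of 19 genes were higher and 0 lower at an unadjusted p under 0.05 and 0 were DEGs by edgeR or DESeq2. Lepr, the leptin receptor, had 2, 33 and 70 reads in Ob and 124 and 166 in Ob + EAE, or 0.111, 1.91 and 4.28 CPM against 5.78 and 7.57 CPM, with an adjusted p of 0.298. Insr, the insulin receptor, had 42.1, 42.8 and 60.5 CPM against 67.8 and 81.9 CPM and Igf1r, the receptor of insulin-like growth factor, 36.9, 48.9 and 42.7 CPM against 74.2 and 86.1 CPM, and after the length step their log2FC were 0.10 and 0.30. The median of the list was 0.06 before and −0.05 after the step.

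Genes of the ribosome and of mitochondria were among the lower DEGs. Of 70 genes of cytosolic ribosomal proteins, 41 were lower and 0 higher at an unadjusted p under 0.05, and 49 were lower without overlap. Of all genes tested, 7.46% were lower at that p and 18.2% without overlap. In the list 2, Rplp1 and Rps14, were DEGs by edgeR, against 22 lower by DESeq2 on the 12 libraries. Over all genes 0.131% were lower by edgeR and 1.86% by DESeq2. Rplp1 fell from 564, 277 and 230.1 CPM in Ob to 119.5 and 96.6 CPM in Ob + EAE (log2FC of −1.72, SE 0.35, adjusted p = 0.0417). Rps14 fell from 242, 147 and 149.6 CPM to 73.5 and 62.1 CPM (log2FC of −1.41, SE 0.29, adjusted p = 0.045). In both, Ob replicate 1 was the highest and the other Ob libraries lay closer to the treated ones. The summed level of the list was 9483, 5179 and 5053 CPM in Ob, 3386 and 2890 CPM in Ob + EAE and 4429 to 5885 CPM in C. The median log2FC was −0.81, and −0.53 after the length step, when 30 genes were still lower at an unadjusted p under 0.05. Of the 70 genes, 32 lay below all 9 libraries of C, Ob and Ob + RSV, against 4.84% of all genes tested.

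Nuclear genes of oxidative phosphorylation, the chain that makes most ATP in mitochondria, went the same way. Of 58 genes, 47 were lower and 0 higher at an unadjusted p under 0.05 (7.46% and 8.25% of all genes tested). By edgeR 4 were DEGs, namely Ndufa5, Ndufa4 and Ndufb8, named for complex I, and Cox6c of complex IV. By DESeq2 on the 12 libraries 31 were lower. Over all genes 0.131% were lower by edgeR and 1.86% by DESeq2. Ndufa5 fell from 175, 92.6 and 92.3 CPM to 43.5 and 37.4 CPM (log2FC of −1.57, SE 0.34, adjusted p = 0.0482) and Cox6c from 431, 199 and 216 CPM to 106 and 92.7 CPM (log2FC of −1.51, SE 0.30, adjusted p = 0.0417). Ndufa4 and Ndufb8 fell with log2FC of −1.34 and −1.21, and Uqcrh of complex III, a DEG outside the list, with −1.39. Again Ob replicate 1 was the highest library for each of these genes. The large subunits Sdha and Ndufs1, encoded by longer genes, had log2FC of 0.16 and 0.14. In all, 38 of the 58 genes lay below all 9 libraries of C, Ob and Ob + RSV, against 4.84% of all genes tested. The median of the list was −0.99, and −0.62 after the length step, when 34 genes were still lower at an unadjusted p under 0.05. Summed levels were 8255 to 15114 CPM in Ob, 6139.7 to 6896 CPM in Ob + EAE and 8324 to 8783 CPM in C.

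In the mitochondrial genome itself, both ribosomal RNA genes and 1 transfer RNA gene were DEGs and lower, and its protein genes were not DEGs. Reads of mitochondrial genes made up 4.94% to 6.80% of the library in Ob and 3.94% to 4.12% in Ob + EAE. The ribosomal RNA genes mt-Rnr1 and mt-Rnr2 fell, from 4853, 3645 and 4531 CPM to 1732 and 1529 CPM (log2FC of −1.41, SE 0.29, adjusted p = 0.045) and from 8493, 5298 and 6474 CPM to 2661 and 2363 CPM (log2FC of −1.43, SE 0.29, adjusted p = 0.0449). The 19 transfer RNA genes tested had a median log2FC of −1.16. Of these mt-Tp fell from 68.2, 41 and 52.3 CPM to 26.2 and 24.8 CPM (log2FC of −1.08, SE 0.23, adjusted p = 0.0463), with a log2FC of −0.18 after the length step, and was picked after its values had been seen. The gene mt-Tn had 86.8, 14 and 13.8 CPM against 8.25 and 6.75 CPM (log2FC of −2.35, adjusted p = 0.0723), and its log2FC was −0.92 without Ob replicate 1, the highest of its libraries. Among the 13 protein genes of that genome 0 were DEGs by edgeR or DESeq2 and 5 were lower at an unadjusted p under 0.05, as in mt-Co3, a subunit of complex IV, with 3859.9, 2967 and 3554 CPM against 2225 and 1959 CPM (adjusted p = 0.113). The list of 15 genes had 7 lower and 0 higher at an unadjusted p under 0.05 and a median of −0.44, or −0.10 after the length step. As the libraries were made from poly(A) RNA, levels of ribosomal and transfer RNA also depend on what escaped that selection.

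The 21 processed pseudogenes among the lower DEGs included copies of ribosomal protein genes, such as Rps19-ps6 (log2FC of −1.67) and Rps24-ps3 (−1.62), and Gm10269 (−1.97) and Gm4149 (−1.91), the last pair with the largest decreases of all DEGs. Their values are uncertain, since reads of a near-identical parent gene can be counted for them. Other lower DEGs, chosen after their values had been seen, were genes of general cell functions. Tmsb4x, which binds actin monomers, fell from 718, 441 and 521 CPM to 269 and 219.8 CPM, and Eif1, a factor of translation start, from 181, 120.3 and 113 CPM to 60.4 and 49.5 CPM. Ptges3, a cochaperone of Hsp90, and Snrpd1, a protein of the spliceosome, fell with log2FC of −1.39 and −1.36. Protein turnover leaned lower too: of 31 proteasome genes 18 were lower and 0 higher at an unadjusted p under 0.05, and 25 were lower without overlap. Of all genes tested, 7.46% were lower at that p and 18.2% without overlap. In the proteasome list 0 were DEGs by edgeR and 3 were lower by DESeq2 (1.86% of all genes). The median was −0.58 (−0.41 after the length step). Psmb6, a subunit of its catalytic core, had 253, 151 and 123 CPM against 86.1 and 73.4 CPM (adjusted p = 0.0733).

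The peptides by which the hypothalamus is known were lower in Ob + EAE in many cases, without passing the test of edgeR. Of 13 hormone and other peptide genes, 10 were lower and 0 higher at an unadjusted p under 0.05, and 11 were lower without overlap. Of all genes tested, 7.46% were lower at that p and 18.2% without overlap. In the list 0 were DEGs by edgeR and 3 were lower by DESeq2 (1.86% of all genes). The median log2FC was −1.09, or −0.62 after the length step. Avp, which encodes vasopressin, the hormone of water retention, had 868, 1539 and 542 CPM in Ob against 305 and 245 CPM in Ob + EAE, a log2FC of −1.84 (SE 0.41, adjusted p = 0.0551). Oxt, which encodes oxytocin, had 612, 772 and 347 CPM against 298 and 243 CPM (adjusted p = 0.14). Ob replicate 2 was the highest for both and Ob replicate 3 the closest to the treated libraries, which did not overlap with Ob. Sst, which encodes somatostatin, the inhibitor of growth hormone release, had 328, 257 and 142 CPM against 130.1 and 113 CPM, and Trh, the starter of the thyroid axis, 156, 129 and 103 CPM against 82.1 and 75 CPM. Crh, the starter of the stress axis, overlapped between the groups at 5.86, 9.66 and 10.5 CPM and 7.46 and 7.66 CPM. Summed over the list, levels were 1469 to 3049 CPM in Ob, 918 to 1087 CPM in Ob + EAE and 1569 to 2040.4 CPM in C.

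Peptides of the suprachiasmatic nucleus, the seat of the daily clock, had the largest negative log2FC of that list. Vip, which couples the clock neurons, had 8.85, 13.3 and 13 CPM in Ob and 2.33 and 2.10 CPM in Ob + EAE, a log2FC of −2.40 (SE 0.76, adjusted p = 0.114). Nms, a marker of many of these neurons, had 53, 50 and 39 reads against 7 and 7, or 2.93, 2.89 and 2.38 CPM against 0.326 and 0.319 CPM, a log2FC of −3.06 (SE 0.90, adjusted p = 0.092). Prok2, a peptide that carries the daily signal outward, had 4.31, 2.14 and 3.55 CPM against 0.606 and 1.00 CPM. In Vip and Nms the treated libraries lay below the Ob libraries by more than the range within Ob. The C libraries held 12.8, 10.6 and 12.2 CPM of Vip, within the range of Ob, and the Ob + RSV libraries ran from 1.46 to 23.7 CPM, on both sides of the other groups. Rgs16, a regulator of G protein signaling that is rhythmic in the same nucleus, had 33.7, 34.7 and 26.3 CPM against 15.1 and 15 CPM (adjusted p = 0.0632), and Six6, a transcription factor expressed there, 12.2, 10.2 and 10.9 CPM against 6.20 and 6.47 CPM. The clock genes as a list of 20 had a median of 0.05, with 2 higher and 2 lower. How the dissections differed between animals, and the hour of sampling, was not tested.

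Feeding peptides of the arcuate nucleus leaned lower, and of those of the lateral hypothalamus Pmch and Hcrt overlapped between the groups. Cartpt, which encodes a satiety peptide, had 307, 193 and 103 CPM against 69.9 and 58.9 CPM (adjusted p = 0.119), and Pomc, the precursor of the satiety hormone α-MSH, 194, 172 and 67.4 CPM against 62.2 and 51 CPM (adjusted p = 0.488). Npy, which encodes the hunger peptide neuropeptide Y, had 32, 24.9 and 15.9 CPM against 11.4 and 10.2 CPM. In these genes Ob replicate 1 was the highest and Ob replicate 3 near the treated libraries, and the C libraries, 86.4, 98.8 and 122 CPM for Cartpt and 51.7, 60.5 and 71 CPM for Pomc, lay closer to Ob + EAE than Ob replicate 1 did. Gal, which encodes galanin, had 60.9, 78.1 and 68.8 CPM against 40.3 and 36.6 CPM (adjusted p = 0.0707). The 7 arcuate genes tested had 3 lower and 0 higher at an unadjusted p under 0.05 and a median of −1.13, or −0.66 after the length step. Of 6 lateral hypothalamic genes, Pmch, for melanin-concentrating hormone, had 373, 365 and 184 CPM against 293 and 252 CPM and Hcrt, for the arousal peptide orexin, 60.2, 83.2 and 25.9 CPM against 55.7 and 41.5 CPM. Tac1, for substance P, had 146, 108 and 77.7 CPM against 71.9 and 62.6 CPM without overlap (adjusted p = 0.269). It was the 1 gene of that list lower at an unadjusted p under 0.05, with 0 higher, and the list had a median of −0.21, which was 0.10 after the step. The 14 receptors of feeding peptides had a median of −0.02 with 1 higher and 0 lower, that 1 being Galr1, the galanin receptor, at 1.22, 4.45 and 3.85 CPM against 8.07 and 7.57 CPM.

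**Figure D4:**
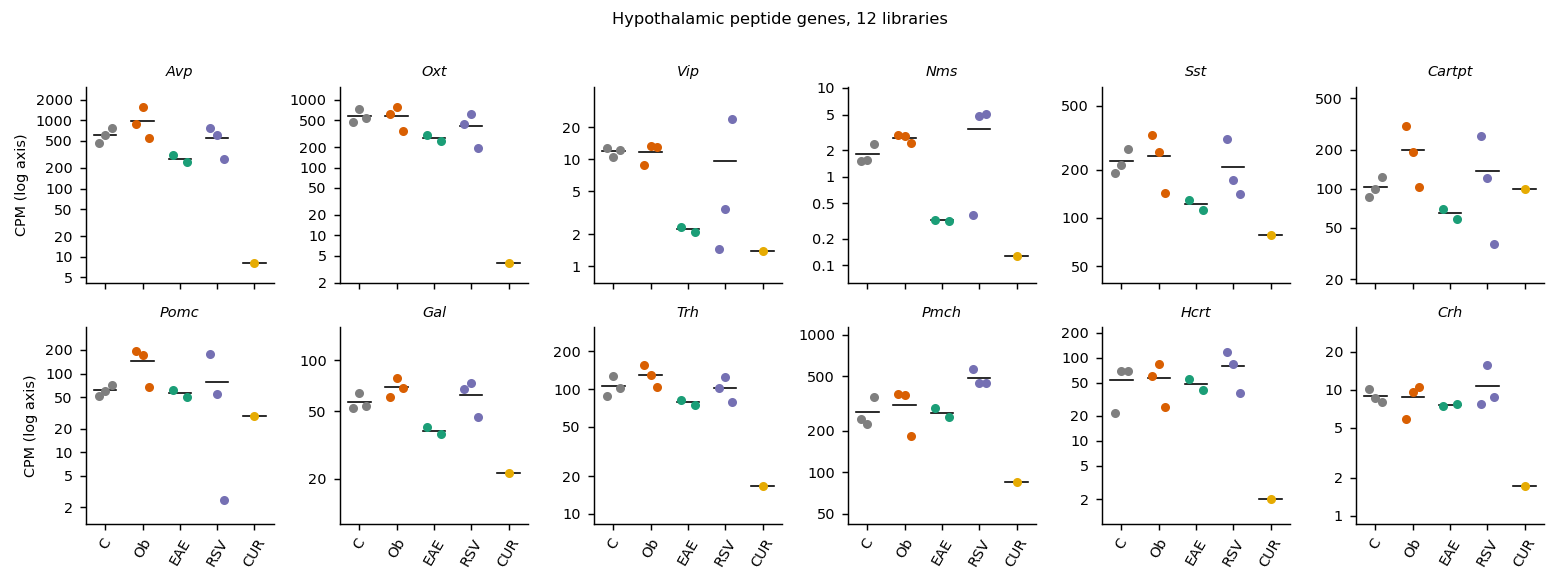
CPM (log y axis) of 12 peptide genes in the 12 libraries by group, with 1 point per library and a bar at the group mean, where EAE, RSV and CUR stand for Ob + EAE, Ob + RSV and Ob + CUR. Avp, Oxt, Vip, Nms, Sst, Cartpt, Pomc, Gal and Trh are lower in both Ob + EAE libraries than in every Ob library, for example 0.326 and 0.319 CPM of Nms against at least 2.38 CPM, while Pmch, Hcrt and Crh overlap.

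No increase of antioxidant genes passed the test. Of the 23 genes of the Nrf2 pathway, 0 were DEGs by edgeR and 1, which was lower, by DESeq2, 0 were higher and 7 lower at an unadjusted p under 0.05, and the median was −0.27, or −0.32 after the length step. Nfe2l2, which encodes Nrf2 itself, had a log2FC of 0.02, and the inducible targets Hmox1, which breaks down heme, and Nqo1, a quinone reductase, −0.68 and −0.49. Hmox1 stood at 4.81, 4.74 and 3.06 CPM against 2.84 and 2.42 CPM, with no treated library above an Ob library. Abundant members lay lower. Sod1, the cytosolic superoxide dismutase, had 392, 209.6 and 216 CPM against 134 and 122 CPM (adjusted p = 0.0711), and Fth1, the heavy chain of the iron store ferritin, 1844, 1359 and 1225 CPM against 822 and 694 CPM (adjusted p = 0.0767). Slc7a11, the cystine importer, and Gclc, the first enzyme of glutathione synthesis, both lay higher in the treated libraries without overlap, at 38.1, 43.1 and 29.4 CPM against 52.7 and 60.0 CPM and 40.6, 60.5 and 62.7 CPM against 70.1 and 72.4 CPM, with adjusted p-values of 0.401 and 0.498.

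Of 21 genes of glutathione metabolism, 8 were lower and 0 higher at an unadjusted p under 0.05, and 13 were lower without overlap. Of all genes tested, 7.46% were lower at that p and 18.2% without overlap. In the list 0 were DEGs by edgeR and 3 were lower by DESeq2 (1.86% of all genes), with a median of −0.50, or −0.19 after the length step. Gstp1, a transferase that joins glutathione to toxins, had 147, 103 and 92.9 CPM against 59.6 and 51.9 CPM (adjusted p = 0.0551), and Gpx3, a secreted peroxidase, 372, 336 and 256 CPM against 179 and 159 CPM (adjusted p = 0.118). Of 15 genes tested for the handling of sulfur amino acids and hydrogen sulfide, 3 were lower and 0 higher, with a median of −0.18. The enzymes that make hydrogen sulfide overlapped between the groups for Cbs, at 46, 50.0 and 32.3 CPM and 40.9 and 36 CPM, and for Cth, at 1.33, 4.80 and 2.26 CPM and 2.33 and 2.74 CPM. Mpst, the third of them, had 37.9, 27.8 and 19.4 CPM against 18.9 and 15.5 CPM (adjusted p = 0.257). Among 22 genes of detoxification 0 were higher and 2 lower, a share near the 7.46% of all genes that were lower, with a median of −0.15.

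Immune genes were lower in part. Ifi27, which interferon induces, was the only DEG of 23 genes of MHC class I and the interferon response and fell from 68.3, 50.5 and 33.5 CPM to 20.3 and 18.6 CPM (log2FC of −1.38, SE 0.30, adjusted p = 0.0481). In C it stood at 26.9, 25.9 and 36 CPM. That list had 6 lower and 0 higher at an unadjusted p under 0.05 and 13 lower without overlap, where 7.46% and 18.2% of all genes were lower, and a median of −0.60, or −0.56 after the length step. B2m, the light chain of MHC class I, had 78.5, 80.5 and 76.3 CPM against 52.7 and 48.2 CPM and H2-K1, a heavy chain, 37.1, 47.4 and 34.9 CPM against 24.6 and 23.2 CPM, with adjusted p-values of 0.0992 and 0.19. In the complement list of 19 genes tested, 4 were lower and 1 higher, with a median of −0.51 that was −0.32 without Ob replicate 2. After the length step that median was −0.29, with 1 gene lower and 0 higher. C1qa and C1qb, which microglia make, had 59.6, 54.4 and 36.2 CPM against 31.9 and 24.6 CPM and 66.7, 51.9 and 34.7 CPM against 32.4 and 26.2 CPM, without overlap. Of 28 genes tested of TNF and NF-κB signaling, 1 was higher and 3 lower, with a median of −0.10, and Ccl2, a chemokine for monocytes, had 9, 4 and 5 reads in Ob and 0 and 0 in Ob + EAE, too few to give a fold change.

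Microglia as a list of 16 genes had 2 lower and 0 higher and a median log2FC of −0.16, or 0.07 after the length step. Their summed levels overlapped, at 277 to 356 CPM in Ob against 324 to 342 CPM in Ob + EAE. Aif1, which encodes the microglial protein Iba1, had 101, 94 and 89 reads in Ob against 30 and 33 reads in Ob + EAE (adjusted p = 0.0596), and Tyrobp, an adaptor of microglial receptors, 13.6, 10.3 and 10.7 CPM against 7.04 and 5.56 CPM. Their log2FC were −1.91 and −0.87 as counted and −1.55 and −0.42 after the length step. Trem2, a receptor that signals through Tyrobp, was also lower without overlap, with −0.56 as counted and −0.67 after the step, whereas Csf1r and Cx3cr1, receptors of microglia, had log2FC of 0.35 and 0.29. Astrocyte genes had a median of −0.04 over 16 genes. Gfap, the filament protein of reactive astrocytes, had 246, 406 and 127 CPM against 122 and 106 CPM (adjusted p = 0.189), whereas Slc4a4, a bicarbonate transporter of astrocytes, had 149, 186 and 109 CPM against 308 and 346 CPM (adjusted p = 0.224). Myelin genes had a median of −0.04 over 21 genes, or 0.08 after the length step. Among 13 genes of oligodendrocyte precursors, Pdgfra, the growth factor receptor that defines these cells, was a DEG and rose from 40.8, 43.8 and 40.2 CPM to 80.2 and 88.2 CPM (log2FC of 1.02, SE 0.22, adjusted p = 0.0463). After the length step the log2FC of Pdgfra, a long gene, was 0.59. In that list 5 were higher and 1 lower, with a median of 0.30 that was 0.00 after the length step.

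The lists for cells that line the third ventricle had lower medians that the length step left in place, though their members differed. The 13 tanycyte genes had a median of −0.63 and −0.67 after the step, with 4 lower and 0 higher, 0 DEGs by edgeR and 1 by DESeq2. Without overlap 5 were lower and 1 higher (18.2% and 24.8% of all genes tested). The higher one was Nes, with a log2FC of 0.67, and Scn7a, Vcan and Tgfb2 had log2FC of 0.34, 0.30 and 0.27 with overlap. Rax, the transcription factor that marks tanycytes, had 6.03, 6.30 and 2.38 CPM in Ob and 0.560 and 0.593 CPM in Ob + EAE (adjusted p = 0.197), and Col23a1, a collagen they express, 20.7, 47.2 and 32.2 CPM against 13.6 and 12.1 CPM (adjusted p = 0.13). The C libraries held 1.56, 2.94 and 2.67 CPM of Rax, between the groups or within the lower part of Ob. Of 21 genes of the motile cilia of ependymal cells, 6 were lower and 0 higher at an unadjusted p under 0.05. Without overlap 6 were lower and 0 higher, and Foxj1 (log2FC of −0.65) was not among these. In that list 0 were DEGs by edgeR and 4 were lower by DESeq2 (1.86% of all genes), with medians of −0.81 and −0.75 before and after the step. Without Ob replicate 2 the median was −0.47, and summed levels of 119 to 267 CPM in Ob against 132 to 153 CPM in Ob + EAE overlapped. Cfap43, a protein of the cilium, had 6.75, 12.3 and 12.7 CPM against 4.10 and 3.74 CPM (adjusted p = 0.0721). The list for the choroid plexus, which lies outside the hypothalamus, summed to 172 to 187 CPM in Ob and 249.98 to 265 CPM in Ob + EAE. Its median log2FC was 0.50, and 0.12 without Ob + EAE replicate 2. Of the 11 genes tested, 7 had a log2FC above 0 and 4 below. Ttr, the defining gene of that tissue, had only 18, 26 and 3 reads in Ob and 48 and 34 in Ob + EAE. The sum therefore does not show how much choroid plexus the samples held.

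Among genes of the stress response, glucocorticoid targets and immediate-early genes leaned lower, and their medians were less negative without Ob replicate 1. The 19 glucocorticoid targets had 7 lower and 2 higher at an unadjusted p under 0.05 (7.46% and 8.25% of all genes tested). Without overlap 3 were lower and 3 higher (18.2% and 24.8% of all genes). These shares are also the background to the other lists of this paragraph. The median of the targets was −0.65 both before and after the length step. It moved to −0.20 without Ob replicate 1 and to −1.03 without Ob replicate 3. Sgk1, a kinase induced by glucocorticoids, had 160.1, 67 and 20.5 CPM against 22.2 and 19.8 CPM and Cdkn1a, an inhibitor of the cell cycle, 49.1, 11.5 and 6.18 CPM against 6.34 and 5.61 CPM, so that Ob replicate 3 lay within the range of the treated libraries in both. Tsc22d3, which glucocorticoids induce strongly, had 168, 121 and 75.5 CPM against 59.5 and 50.8 CPM without overlap (adjusted p = 0.0705). Nr3c1, which encodes the glucocorticoid receptor, lay higher instead, at 40.3, 48.1 and 49.9 CPM against 78.2 and 82.9 CPM (adjusted p = 0.0662). Among 21 immediate-early genes, the first to follow neuronal activity, 5 were lower and 0 higher, with a median of −0.56 that was −0.29 without Ob replicate 1. Fos had 29.3, 21.1 and 29.5 CPM against 13.5 and 14.1 CPM (adjusted p = 0.144). The unfolded protein response had a median of −0.20 over 25 genes with 5 lower and 1 higher, among them Atf4, the transcription factor of amino acid and secretory stress, at 150.3, 111 and 125 CPM against 81.4 and 71 CPM (adjusted p = 0.0742). Cytosolic heat shock genes had a median of −0.11 over 19 genes, which was −0.23 without Ob replicate 1 and −0.06 without Ob replicate 2.

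The medians of lipid gene lists stayed near that of all genes. Of 31 genes of cholesterol synthesis and transport, 7 were higher and 1 lower at an unadjusted p under 0.05 (8.25% and 7.46% of all genes tested). Without overlap 14 were higher and 7 lower (24.8% and 18.2% of all genes). In that list 0 were DEGs by edgeR or DESeq2 and the median was 0.09. After the length step 2 were higher and 4 lower at that p (6.01% and 7.51% of all genes). Pmvk, an early enzyme of the synthesis encoded by a short gene, had 94.6, 61.1 and 64.5 CPM in Ob against 38.2 and 36.9 CPM in Ob + EAE (adjusted p = 0.0705). The 34 genes of lipolysis and fatty acid oxidation had a median of −0.14 and the 24 of sphingolipid and ganglioside synthesis 0.17. The endocannabinoid list of 11 had a median of 0.18 with 3 higher and 0 lower, Cnr1, the cannabinoid receptor of neurons, at 69.2, 57.7 and 89.5 CPM against 105 and 115 CPM (adjusted p = 0.26). Lysosomal genes had a median of −0.16 over 28 genes with 8 lower and 2 higher, and granins and their processing enzymes −0.10 over 11 with 3 lower and 0 higher.

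Tissue beside the hypothalamus was checked with marker lists. Summed levels were 561 to 970 CPM in Ob and 649 to 666 CPM in Ob + EAE for the thalamus, with medians of 0.35 and, after the length step, −0.04, and the first was 0.20 without Ob replicate 3 and 0.18 without Ob + EAE replicate 2. They were 764 to 869 CPM against 1009.6 to 1024 CPM for cortex and hippocampus (median 0.23, with 4 of 16 genes higher and 0 lower) and 709 to 839 CPM against 901 to 906 CPM for the striatum (median 0.32), without overlap in both. The median for cortex and hippocampus was 0.11 without Ob replicate 1, 0.09 without Ob replicate 3 and 0.08 without Ob + EAE replicate 2. Nptx1, a synaptic protein on the cortical list, had 70.4, 87.2 and 84.5 CPM against 159.7 and 162 CPM with an adjusted p of 0.0482, and its log2FC was just under 1. Of 13 anterior pituitary genes 8 were tested, Lhb and Fshb had no read in the 5 libraries, Prl had 0, 2 and 0 reads against 5 and 3, and Gh 0, 12 and 13 against 2 and 3. The median of the pituitary genes tested was −0.93, and it was −0.60 without Ob replicate 1, −0.32 without Ob replicate 2 and −1.49 without Ob + EAE replicate 1. The red cell list summed to 242 to 378 CPM in Ob and 293 to 347 CPM in Ob + EAE and overlapped, with a median of 0.42 that was 0.20 without Ob replicate 2 and 0.16 without Ob + EAE replicate 1. After the length step the median of the red cell list was 0.87. Hypothalamic transcription factors had a median of −0.02 over 18 genes, cholinergic genes −0.22 over 10 and abundant long non-coding RNAs 0.16 over 13. Over the fits that left out 1 library these medians ran from −0.16 to 0.18, from −0.25 to 0.03 and from 0.04 to 0.16. For the long non-coding RNAs the median was −0.42 after the length step. The part of these shares of tissue in the results above was not tested.

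**Figure D5:**
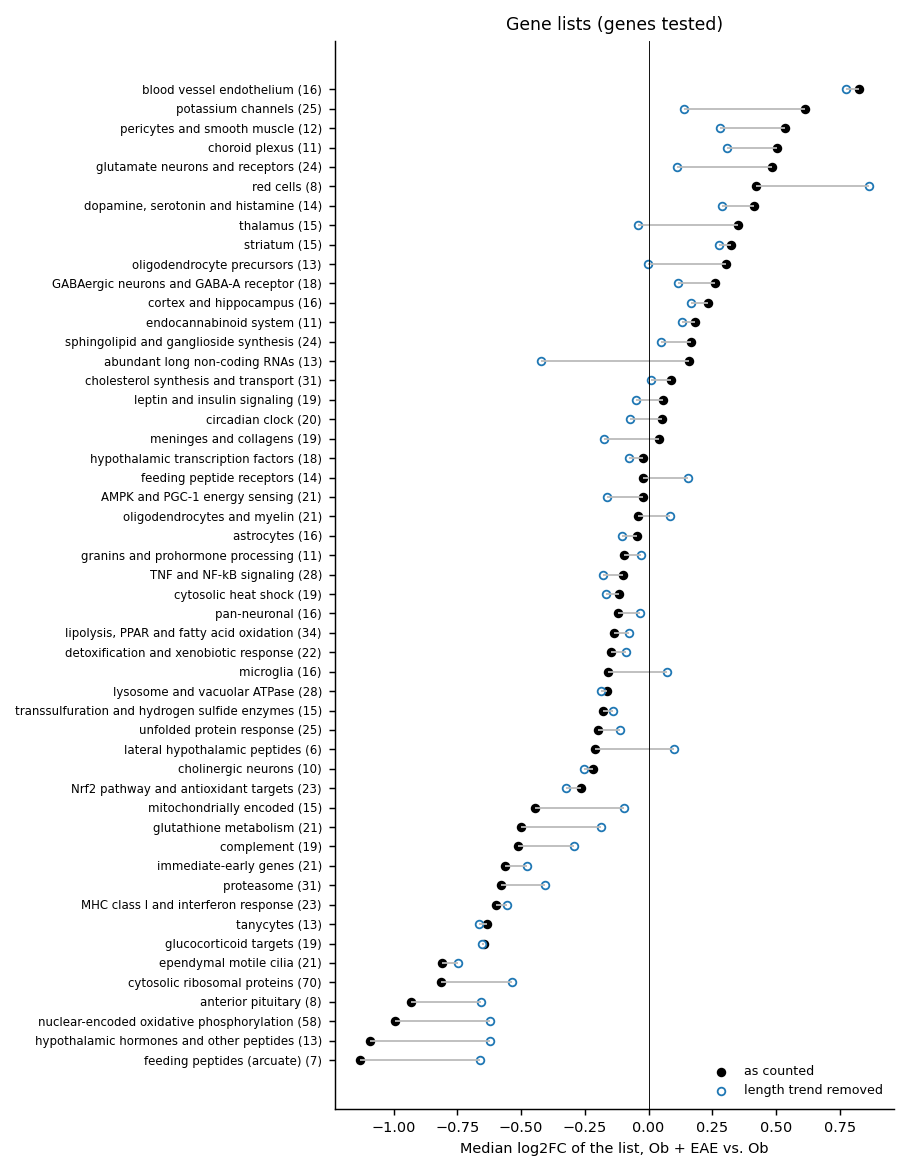
Median log2FC of Ob + EAE vs. Ob (x axis) for 51 gene lists (y axis, number of genes tested in parentheses), as counted (filled) and with the length trend removed (open). The endothelial list is highest as counted, at 0.82, and stays at 0.78, while potassium channels move from 0.61 to 0.14.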

How the data were processed

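Hypothalamic RNA was measured in 12 libraries by paired-end RNA-seq on an Illumina NovaSeq after TRIzol extraction and poly(A) selection with a stranded kit. The authors deposited raw counts of reads per gene for 78334 gene IDs, made with HISAT2 and featureCounts according to the study's methods. The submitters' processing notes name FastQC, featureCounts and GRCm39. Which annotation was counted, whether strand was used and how multimapped reads were treated is not given in the sources used here. Raw counts per gene keep depth but also the length and composition of each library, so levels (CPM) were scaled by the TMM method.

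Genes with at least 10 reads over the 5 Ob and Ob + EAE libraries were tested with edgeR (version 4.0.16) and its quasi-likelihood test, on all 12 libraries with group as the only term (7 residual degrees of freedom), with Benjamini-Hochberg adjustment over 29782 genes, under R 4.3.3. DEGs had a log2FC of 1 or more in size at an adjusted p under 0.05, the thresholds of the study's methods. Alternatives were other scalings, filters, the 5 libraries alone, DESeq2 (version 1.42.0), a replicate block and leaving out each library. Symbols, biotypes and exon lengths came from GENCODE M21 (GRCm38) by gene ID, which matched 65.7% of IDs. No coordinates are given for counts. The length step, added after the data were seen, fitted a spline of 5 degrees of freedom on log2 exon length to genes with a mean of at least 50 reads in each library and entered it as an offset. The fits were checked on simulated data. Samples were grouped by their titles. Same-numbered Ob and Ob + EAE libraries had r of 0.38 and 0.10 between their deviations from the group mean. As Ob + EAE has 2 libraries, its deviations mirror each other (Ob replicate 1 had −0.38 with Ob + EAE replicate 2), so these r cannot test a pairing. Across all groups r ran from −0.18 to 0.54 for same numbers and from −0.52 to 0.37 for different ones. The labels give no pairing, and the numbers were not taken to pair libraries.

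Named genes were the 15 largest increases and 15 largest decreases among DEGs, the 10 largest in each direction among genes with at least 100 scaled counts and no overlap, and up to 4 members of smallest p and the first 3 members of each of 51 gene lists. A result that this rule would name is not reported here. Genes outside this rule are said to be so, or, in the lists, illustrate a list by contrast. The comparison and the lists were chosen with earlier results of these data known, so lists are described by counts and medians without a test.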

Additional observations from a re-analysis of the deposited data

How the results depend on the processing

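The 129 DEGs kept their direction in each alternative that tested them, but their number did not keep its size. It was 114 with RLE scaling and 136 without a minimum on the log2FC. It was 194 (135 higher, 59 lower) with upper quartile scaling, 1036 (454 and 582) with no filter beyond 1 read, 665 (276 and 389) with at least 10 reads over the 12 libraries and 0 with edgeR's filterByExpr. On the 5 libraries edgeR called 652 (383 and 269) and DESeq2 1269 (607 and 662), and DESeq2 on the 12 libraries called 923 (368 and 555). The cause of these differences was not tested. Leaving out 1 library gave 0 to 680 DEGs, and 752 to 2172 genes at an unadjusted p under 0.05 with a log2FC of 1 or more, against 1710 with all libraries. With 1 library left in Ob + EAE, the lone library is assumed to vary like the other groups. With the length trend removed there were 0 DEGs and 1044 genes at that unadjusted p and log2FC, and with the length and GC trends removed 0 and 1045.

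With replicate number as a block, 1064 genes were DEGs (450 higher, 614 lower), although the pairing has no basis in the labels. The median log2FC of all genes moved from 0.02 to 0.12 with the block and to 0.14 with no filter beyond 1 read. The median of 10 of the 51 lists changed sign with the length trend removed, of 11 with length and GC removed, of 3 with the block or upper quartile scaling, and of 1 to 5 when a library was left out. Leaving out a library moved the median of 32 of the 51 lists by more than 1.5 times in at least 1 fit. Genes without overlap numbered 12791, with 12691 when libraries were scaled to their totals only, an alternative added after the data were seen like the length and GC steps, and 10842 after filterByExpr.

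With 2 libraries against 3, small differences in genes of few reads were not detectable, and intervals between so few libraries cover their own spread only. Genes near the median of their list were not shown to be equal between the groups.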

Other observations

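Some genes with a large log2FC missed adjustment, and in some of them a single library stood apart. Bc1, a short non-coding RNA of dendrites, had 7211, 846 and 1009 CPM in Ob and 294 and 232 CPM in Ob + EAE, a log2FC of −3.52 (SE 0.80, edgeR adjusted p = 0.0558). Ob replicate 1 was several times the other Ob libraries, the groups did not overlap, and the log2FC ran from −3.95 to −1.85 over the fits that left out 1 library. Arl4d, a small GTPase, had 38.6, 6.53 and 5.69 CPM against 3.08 and 3.37 CPM, again with Ob replicate 1 far above the rest. Crabp1, a binding protein of retinoic acid, had 28.4, 15 and 10.6 CPM against 4.38 and 2.92 CPM (adjusted p = 0.0941). Trpc5, a cation channel of hypothalamic neurons, had 0, 75 and 45 reads in Ob and 334 and 584 in Ob + EAE (adjusted p = 0.0631), without overlap.

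The Ob + CUR library, which has no replicate, held 3.96 CPM of Oxt, 8.26 CPM of Avp and 2.02 CPM of Hcrt. These were the lowest values of the 12 libraries for the 3 peptide genes, against 298 and 243 CPM of Oxt and 305 and 245 CPM of Avp in Ob + EAE. Its total was 23273359 counted reads.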
